A study of Danio rerio with 10 samples.

Results

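The Wnt ligands, their receptors and their modulators were read in RNA-seq of zebrafish pectoral fin cells with and without *prdm1a*. Members were chosen by gene name: all *wnt*, *fzd*, *sfrp*, *dkk*, *rspo*, *nkd*, *tcf7* and *lgr4* to *lgr6* genes, *axin1* and *axin2*, and *lef1*, *lrp5*, *lrp6*, *wif1* and *notum1a*, with at least 10 counts summed over the 4 libraries. This gave 69 of the 32520 genes of the table. A further 4 genes with matching names fell below the limit: *wnt6a* with 8 counts, 1 *wnt8a* identifier with 2, and a second *wnt8a* identifier and *nkd3l* with 0. The members just above it were *wnt8b* with 14 counts and, with 20 counts each, *wnt7ba* and 1 of 4 identifiers named *nkd3*. No member was chosen by how it differed between genotypes. The 69 comprised 23 ligands, 14 Frizzled receptors, 3 genes for Lrp and Lgr receptors, 4 R-spondins, 12 secreted inhibitors, 8 Axin and Naked genes and 5 Tcf and Lef genes.

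The mutant group was *prdm1a-/-* (allele m805, predicted to be null because a stop codon interrupts its SET domain), with 2 libraries, and the control group was wild type (WT), also with 2. Both groups carried *Tg(Mmu:Prx1-EGFP)*, in which an enhancer of mouse Prx1 drives EGFP, and both were taken at 48 hours post fertilization (hpf). Mutant embryos were recognized by their pigment phenotype, heads and arches were cut away, and EGFP-positive cells of pooled embryos were sorted. The transgene also labels pharyngeal arches and dorsal head, so remnants of those tissues could enter the gate. Prdm1a is a transcription factor needed for pectoral fin outgrowth, and the comparison asks which genes differ in fin cells without it.

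Wnt proteins are secreted lipid-modified ligands that bind Frizzled receptors. With the co-receptors Lrp5 and Lrp6, Frizzled activation stabilizes beta-catenin, which acts on DNA through Tcf and Lef proteins; other Wnt signals act through planar cell polarity proteins and do not need beta-catenin. In vertebrate limb and fin buds, Wnt signals are known for their part in starting the bud, in keeping the apical ectoderm active, and in elongating the mesenchyme.

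Library totals were 20303621 to 26798799 counts. A library with 0 counts of a gene could by counting error hold up to 3, if each count were independent. That is 0.116 to 0.147 CPM, the count divided by the TMM-scaled library total and given per 1000000. Among genes with 1 to 19 counts, 78.5% to 81.8% had an even count, so many counts came in pairs. The number of independent fragments is then smaller than the count, and the limit of 3 counts is too low. All 8 markers of fin mesenchyme, such as *tbx5a* and *prrx1a*, had counts in every library, with summed levels of 976 and 744 CPM in *prdm1a-/-* and 1011 and 969 CPM in WT. Markers of other cells were present too: the 9 of apical fold and epidermis summed to 16246 and 10267 CPM in *prdm1a-/-* and to 14223 and 10712 CPM in WT. The libraries numbered 2 differed from those numbered 1 in both genotypes, and cartilage markers summed to 643 CPM in *prdm1a-/-* and 1340 CPM in WT in the libraries numbered 2, against 20931 and 27569 CPM in those numbered 1. Transcripts of *prdm1a* were at 123 and 302 CPM in *prdm1a-/-* and at 50.1 and 232 CPM in WT (log2 fold change 0.83, SE 0.20, adjusted p = 0.0932). A transcript with a premature stop codon can still be counted, so this value does not check the labels.

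Of the 69 members, 65 passed the filter on low counts and were tested. Genotypes were compared within each replicate number, by edgeR's quasi-likelihood test with that number as a blocking term, and p-values were adjusted over all 20007 genes tested. A member is called at an adjusted p under 0.05. A single member was called, the receptor gene *fzd9b*, which fell. That is 1.54% of the members tested, beside 1.01% of all genes, with 0.395% higher and 0.62% lower. No member was called higher. At an unadjusted p under 0.05 there were 14 members, 7 higher and 7 lower, or 21.5% of those tested, beside 12.4% of all genes (6.4% higher and 6.05% lower). Both *prdm1a-/-* libraries lay above both WT libraries for 8 members (12.3%, beside 12.7% of all genes) and below both for 15 (23.1%, beside 13.5%). The median log2 fold change, *prdm1a-/-* over WT, was -0.03 over the members and 0.01 over all genes.

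**Figure D1:**
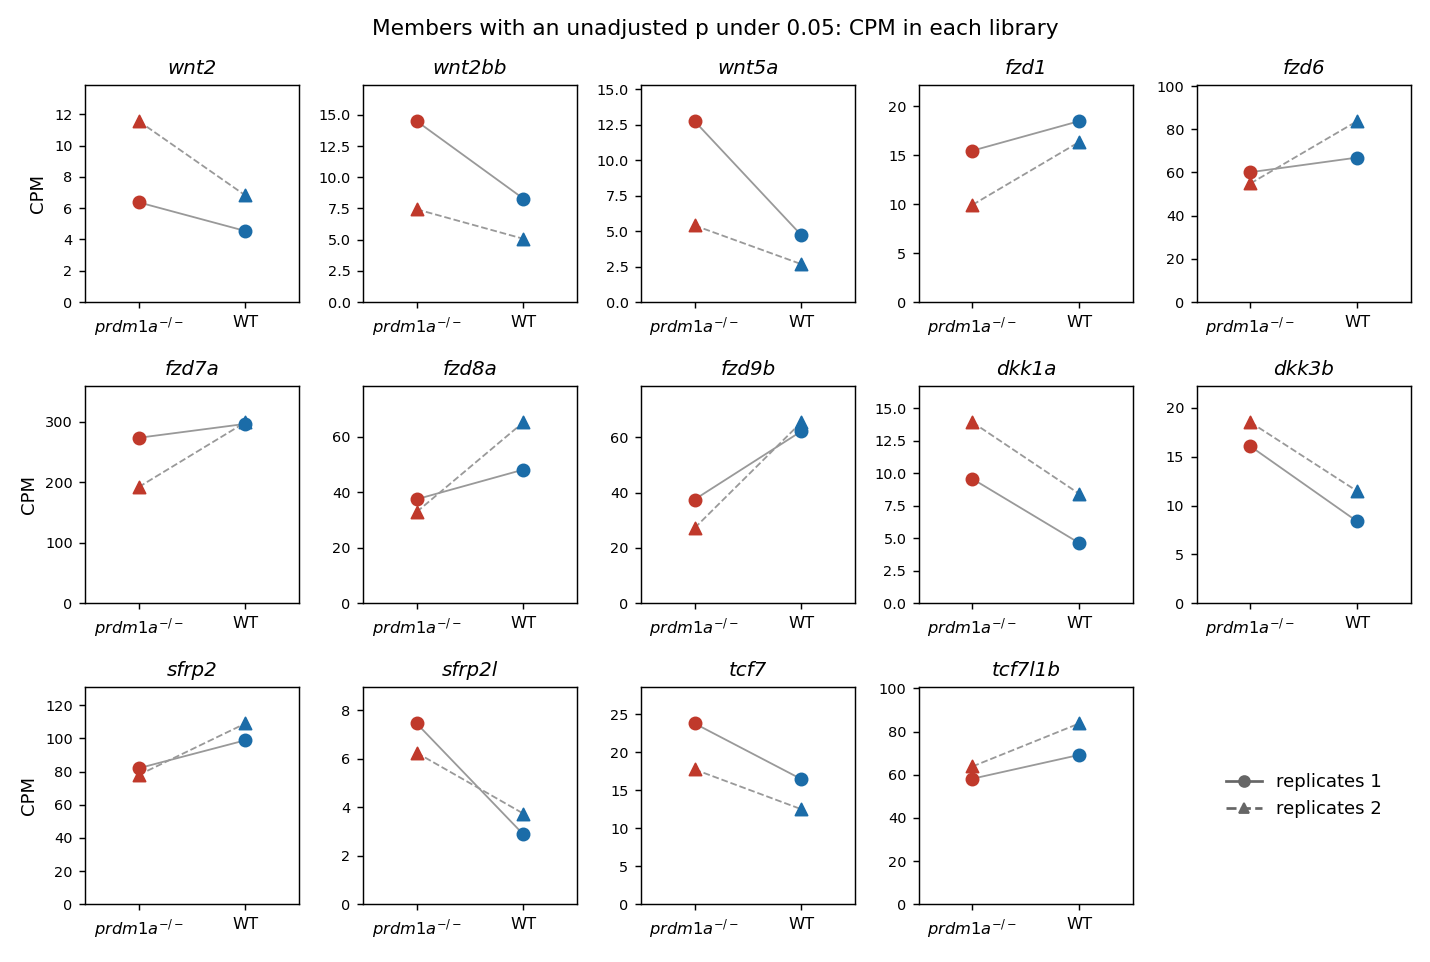
Level in CPM (vertical axes, linear and starting at 0) of the 14 members with an unadjusted p under 0.05, in *prdm1a-/-* libraries (left, red) and WT libraries (right, blue). Circles and solid lines are replicates 1, triangles and dashed lines replicates 2. *fzd9b* lies at 37.5 and 27.2 CPM in *prdm1a-/-* and at 62.2 and 65.5 CPM in WT, and *wnt5a* shows both a higher level in *prdm1a-/-* and a wide gap between the replicate numbers.

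Among the Frizzled receptors, the seven-pass membrane proteins that bind Wnt, *fzd9b* (ENSDARG00000014673) had 766 and 706 counts in *prdm1a-/-*, against 1426 and 1472 counts in WT. These were 37.5 and 27.2 CPM in *prdm1a-/-* and 62.2 and 65.5 CPM in WT. Both mutant libraries lay below both WT libraries, and the WT libraries lay close together. The fitted difference on the log2 scale was -0.998 (SE 0.17, adjusted p = 0.0225), a level 0.501 times that of WT, with log2 ratios of -0.73 in replicates 1 and -1.27 in replicates 2. In zebrafish, Fzd9b is known as the receptor through which Wnt9a acts on emerging blood stem cells. The call rests on the block and, within edgeR, on the scaling: the adjusted p was 0.9999 without the block and 0.0548 with RLE size factors. With DESeq2 and the block it was 0.00579. Over the 6 fits with the block it ran from 0.00044 to 0.0548. In bulk samples, fewer cells of a type and less RNA per cell cannot be told apart.

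Some markers of other cells fell as *fzd9b* did. Of 7 neural crest and pigment markers, 3 were called lower and none higher, and 5 lay below WT in both mutant libraries. Mutant embryos were picked by their pigment phenotype, so pigment markers are not independent of how the groups were formed. The summed level of the 7 was 44.3 and 33.2 CPM in *prdm1a-/-* and 105 and 73.0 CPM in WT, and no marker of the list was at 0 in any library. *sox10*, a transcription factor of the neural crest, had 17.4 and 21.0 CPM in *prdm1a-/-* and 36.2 and 38.5 CPM in WT (log2 fold change -0.96, SE 0.17, adjusted p = 0.0273). Of 6 pharyngeal arch markers, 4 were called lower and none higher. Their sum was 230 and 118 CPM in *prdm1a-/-* and 348 and 219 CPM in WT, with none at 0 in any library. Of the 4, *hand2* (log2 fold change -1.12, SE 0.15, adjusted p = 0.00525) was also on the fin mesenchyme list. It was the 1 marker called among the 8 of that list. The paper counts *hand2* and *dlx2a* among known genes of pectoral fin development, so these arch markers are not particular to the arches. The neuronal marker *elavl3* was also called lower (log2 fold change -0.81, SE 0.15, adjusted p = 0.0306), 1 of 5 neuronal markers called, with the 5 summing to 128 and 86.8 CPM in *prdm1a-/-* and 135 and 162 CPM in WT. The neuronal list was mixed: *elavl4* had a log2 fold change of -0.82, while *snap25a*, *stmn2a* and *gap43* had 0.19, 0.20 and 0.27, and none of these 4 was called. Among 7 cartilage markers 0 were called, but all had log2 fold changes below 0, from -2.76 (*matn1*, SE 1.23) to -0.24 (*sox9a*, SE 0.15). Of 4 endothelial and 6 blood markers 0 were called. In endothelium 2 lay above WT in both mutant libraries and 1 below, and in blood 0 lay above and 1 below. The part of these cell types in the lower *fzd9b* level was not tested.

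No other Frizzled gene was called, though most had values below 0. Of the 14, all tested and *fzd9b* included, 10 had a log2 fold change below 0, with a median of -0.28. There were 5 at an unadjusted p under 0.05, all below 0, and 6 whose mutant libraries lay below both WT libraries. Over all genes tested, 6.05% were lower at an unadjusted p under 0.05 and 13.5% lay below WT in both mutant libraries. In *fzd8a*, the levels were 37.5 and 32.9 CPM in *prdm1a-/-* and 48.2 and 65.3 CPM in WT (log2 fold change -0.68, SE 0.18, adjusted p = 0.127). Over the 6 fits with the block its adjusted p ran from 0.0272, without the filter on low counts, to 0.277, with DESeq2. *fzd7a*, known with other Frizzled genes for morphogenetic movements in the zebrafish gastrula, had 273 and 192 CPM in *prdm1a-/-* and 296 and 299 CPM in WT (log2 fold change -0.38, SE 0.16, adjusted p = 0.359). The 2 WT libraries of *fzd7a* lay close together, while the mutant libraries differed and only the second lay far below WT.

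*fzd6*, a receptor known for planar polarity of hair in mice, had 60.1 and 54.9 CPM in *prdm1a-/-* and 66.9 and 83.8 CPM in WT (log2 fold change -0.38, SE 0.16, adjusted p = 0.353). *fzd1* had 15.5 and 9.94 CPM in *prdm1a-/-* and 18.5 and 16.4 CPM in WT (log2 fold change -0.49, SE 0.22, adjusted p = 0.399). In each of these receptors the ratio was further below 0 in replicates 2 than in replicates 1, for instance -0.61 against -0.15 in *fzd6*. *fzd7b* also lay lower in both mutant libraries, at 118 and 82.2 CPM against 124 and 120 CPM in WT, with an unadjusted p of 0.0701. The receptor *fzd2* had 187 and 107 CPM in *prdm1a-/-* and 160 and 126 CPM in WT (log2 fold change -0.01, SE 0.15, adjusted p = 0.990), and its groups overlapped. In a single Frizzled gene, *fzd5*, both mutant libraries lay above WT, at 10.98 and 7.70 CPM in *prdm1a-/-* and 5.37 and 6.58 CPM in WT (adjusted p = 0.432).

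**Figure D2:**
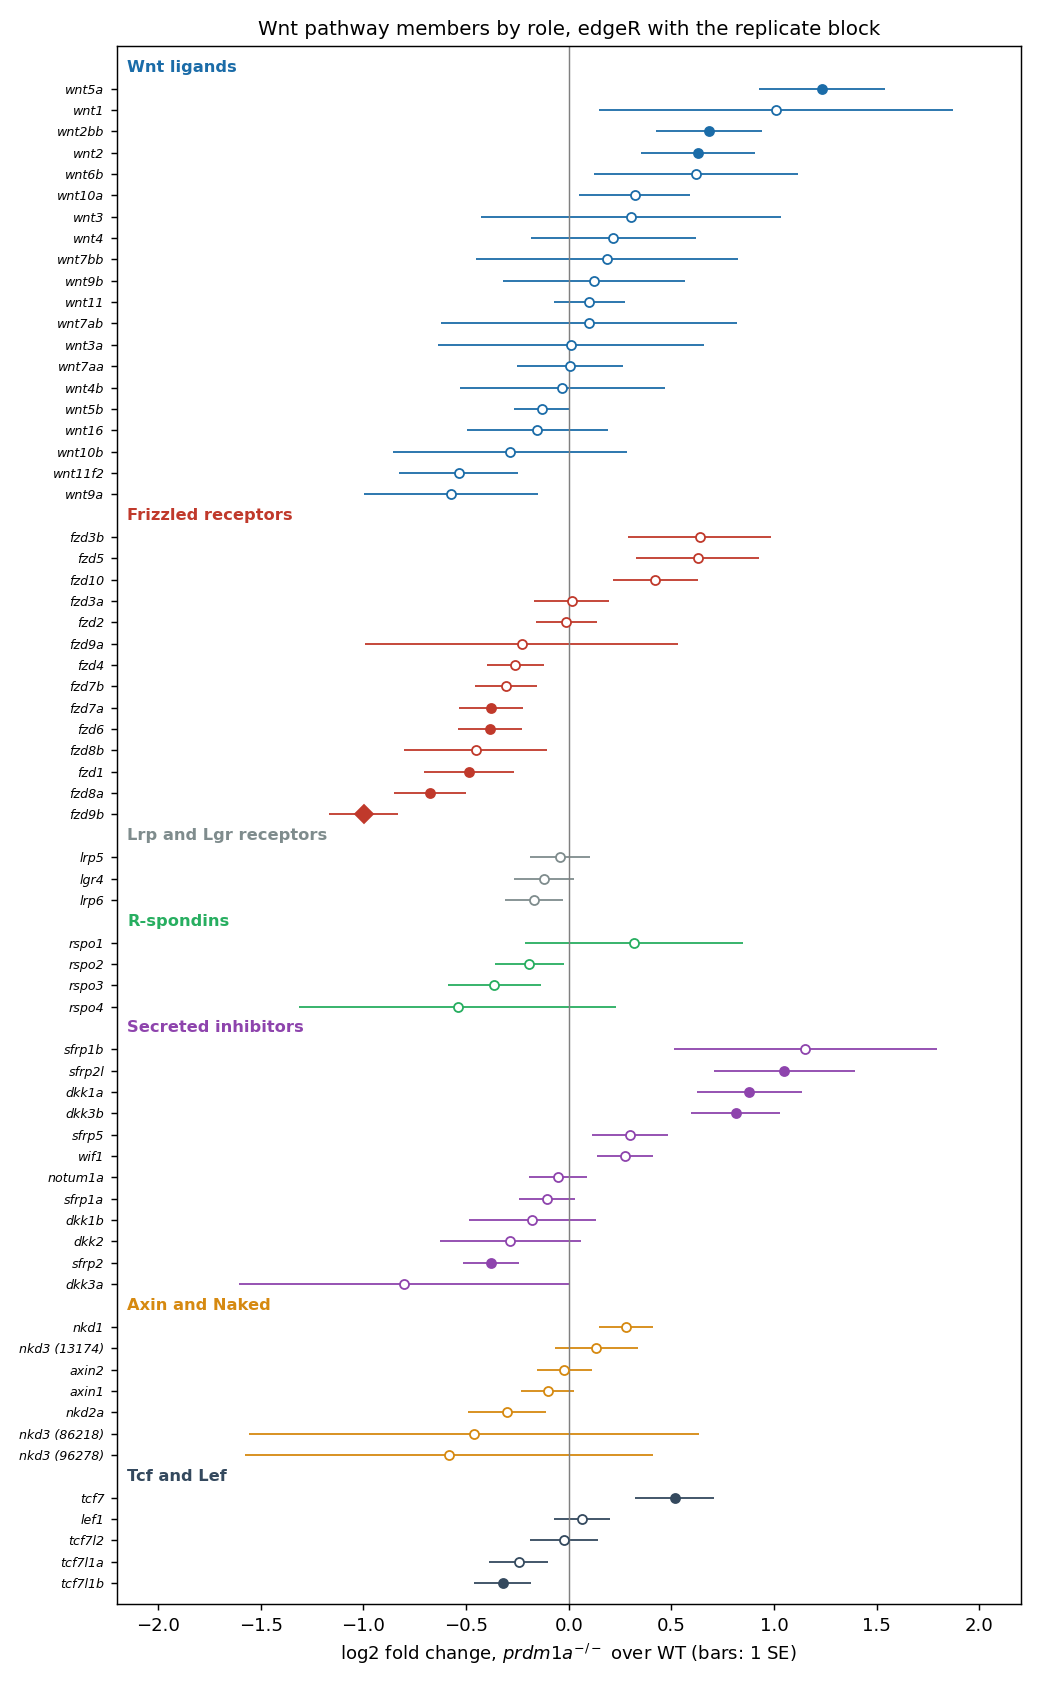
Log2 fold change of *prdm1a-/-* over WT (horizontal axis, linear) for the 65 members tested, grouped by role; bars are 1 SE of the fit with the replicate block. Filled symbols have an unadjusted p under 0.05, and the diamond marks the single member with an adjusted p under 0.05, *fzd9b*. Of the Frizzled receptors 10 of 14 lie below 0, and of the ligands 14 of 20 lie above 0. Numbers after *nkd3* are the last digits of its identifiers.

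No Wnt ligand was called. Of 23, 20 were tested, and 14 of these had a log2 fold change above 0, with a median of 0.11 and a median SE of 0.41. In 10 of the 20, the ratios of replicates 1 and 2 had opposite signs. *wnt5a* had the largest log2 fold change among the ligands tested, with 260 and 140 counts in *prdm1a-/-* and 108 and 60 counts in WT. In CPM these were 12.7 and 5.39 in *prdm1a-/-* and 4.71 and 2.67 in WT. Both mutant libraries lay above both WT libraries and within each number the mutant level was 2.703 and 2.02 times that of WT. The log2 fold change was 1.23 (SE 0.31), and the adjusted p of 0.107 missed the threshold; it was 0.0245 without the filter on low counts. Wnt5a is a ligand of beta-catenin-independent signals, and mouse limbs without it are short.

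*wnt2bb*, known in zebrafish for liver specification, had 14.5 and 7.44 CPM in *prdm1a-/-* and 8.29 and 5.07 CPM in WT (log2 fold change 0.68, SE 0.26, adjusted p = 0.314). Its groups overlapped, since the second mutant library lay under the first WT library, while within each number the mutant was higher. *wnt2* had 6.37 and 11.6 CPM in *prdm1a-/-* and 4.54 and 6.81 CPM in WT (log2 fold change 0.63, SE 0.28, adjusted p = 0.392), with overlap of the same kind. The 2 ligand genes with the most counts did not differ beyond their spread. *wnt11* had 149 and 65.0 CPM in *prdm1a-/-* and 109 and 77.9 CPM in WT (log2 fold change 0.10, SE 0.18, adjusted p = 0.878). *wnt5b*, the gene mutated in pipetail fish with defects of convergence and extension, had 78.0 and 66.7 CPM in *prdm1a-/-* and 88.5 and 70.4 CPM in WT (log2 fold change -0.13, SE 0.14, adjusted p = 0.767).

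*wnt9a*, the partner of *fzd9b*, had 1.96 and 4.05 CPM in *prdm1a-/-* and 4.28 and 4.23 CPM in WT. Both mutant libraries lay below WT, the second by little (log2 fold change -0.57, SE 0.42, adjusted p = 0.648). *wnt3* and *wnt3a*, whose relatives in mouse and chick act in the apical ectodermal ridge of the limb, gave no stable value. *wnt3* had 2.25 and 1.81 CPM in *prdm1a-/-* and 4.63 and 0.445 CPM in WT, so that the log2 ratio was -1.04 in replicates 1 and 2.03 in replicates 2. *wnt3a* had 1.67 and 0.809 CPM in *prdm1a-/-* and 2.05 and 0.623 CPM in WT (log2 fold change 0.01, SE 0.65). *wnt7aa*, related to the mouse gene of dorsal limb ectoderm, had 19.6 and 13.2 CPM in *prdm1a-/-* and 28.2 and 8.94 CPM in WT, with ratios of opposite sign. *wnt10b*, whose human relative is linked to split hand and foot malformation, had 2.35 and 0.886 CPM in *prdm1a-/-* and 2.53 and 1.25 CPM in WT (log2 fold change -0.29, SE 0.57).

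The remaining ligands lay under 20 CPM. *wnt11f2*, the gene of silberblick fish, had 4.51 and 6.24 CPM in *prdm1a-/-* and 5.85 and 10.1 CPM in WT (log2 fold change -0.54, SE 0.29, adjusted p = 0.501). *wnt1* lay higher in both mutant libraries, at 0.980 and 0.925 CPM against 0.611 and 0.356 CPM in WT, with an SE of 0.86 on a log2 fold change of 1.01. The other 8 ligands tested, *wnt4*, *wnt4b*, *wnt6b*, *wnt7ab*, *wnt7bb*, *wnt9b*, *wnt10a* and *wnt16*, had overlapping groups and adjusted p-values from 0.679 to 0.993. The 3 ligands not tested held few reads. *wnt2ba*, known to act upstream in starting the zebrafish fin bud, had 0.196 and 0.308 CPM in *prdm1a-/-* and 0.0873 and 0.578 CPM in WT. *wnt7ba* had 0.490 CPM in *prdm1a-/-* and 0.436 CPM in WT in the libraries numbered 1 and 0 counts in both numbered 2. *wnt8b* had 0.294 and 0 CPM in *prdm1a-/-* and 0.175 and 0.178 CPM in WT. At this depth no difference was detectable in these 3.

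Co-receptors showed no call. *lrp5* had 199 and 251 CPM in *prdm1a-/-* and 179 and 296 CPM in WT (log2 fold change -0.04, SE 0.15, adjusted p = 0.942). *lgr4*, a receptor for R-spondins, had 90.5 and 95.6 CPM in *prdm1a-/-* and 85.8 and 119 CPM in WT (log2 fold change -0.12, SE 0.15, adjusted p = 0.807). Both overlapped between genotypes. *lrp6* lay slightly lower in the mutant, at 65.2 and 66.6 CPM against 67.0 and 81.7 CPM in WT (log2 fold change -0.17, SE 0.14, adjusted p = 0.696).

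R-spondins, which help to hold Frizzled and Lrp proteins at the cell surface, were likewise without a call. *rspo2*, required for limb outgrowth in mice, had 27.05 and 29.5 CPM in *prdm1a-/-* and 28.0 and 37.3 CPM in WT (log2 fold change -0.19, SE 0.17, adjusted p = 0.708). In *rspo3*, 15.6 and 11.2 CPM in *prdm1a-/-* stood against 16.2 and 17.8 CPM in WT (log2 fold change -0.36, SE 0.23, adjusted p = 0.569), with both mutant libraries lower. *rspo1* and *rspo4* were at 0.462 to 3.62 CPM and had standard errors of 0.53 and 0.77. In a RefSeq gene table of another assembly (GRCz12tu), 6 members lie on the chromosome of *prdm1a*, namely *fzd1*, *fzd6*, *wnt4b*, *rspo1*, *rspo2* and *rspo3*. None of these 6 was called, and *fzd9b* is not among them. In the edgeR test, *fzd1* and *fzd6* were lower at unadjusted p-values of 0.0493 and 0.0333. In *fzd1*, *fzd6* and *rspo3* both mutant libraries lay below WT, while the groups of *wnt4b*, *rspo1* and *rspo2* overlapped. The part of a shared chromosome in these values was not tested.

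The secreted inhibitors lay on both sides of WT, with 6 of 12 above 0, 6 below 0, and none called. In all 12 the ratio had the same sign in both replicate numbers, though some ratios were near 0, such as -0.002 for *dkk1b* in replicates 2. Of the 20007 genes tested, 5837 were higher in both numbers and 5812 lower in both. *dkk1a* encodes a Dickkopf protein, which blocks Lrp5 and Lrp6. It had 9.55 and 13.9 CPM in *prdm1a-/-* and 4.63 and 8.41 CPM in WT (log2 fold change 0.88, SE 0.26, adjusted p = 0.177). *dkk3b*, of the divergent Dickkopf branch, had 16.1 and 18.5 CPM in *prdm1a-/-* and 8.38 and 11.5 CPM in WT (log2 fold change 0.81, SE 0.22, adjusted p = 0.135). Both mutant libraries lay above both WT libraries in both genes. The remaining Dickkopf genes, *dkk1b*, *dkk2* and *dkk3a*, had values below 0 with standard errors of 0.31 to 0.81.

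Secreted Frizzled-related proteins bind Wnt outside the cell. *sfrp2l* had 7.45 and 6.24 CPM in *prdm1a-/-* and 2.88 and 3.74 CPM in WT (log2 fold change 1.05, SE 0.34, adjusted p = 0.235), and its groups did not overlap. *sfrp2* was on the other side, at 82.0 and 78.0 CPM in *prdm1a-/-* and 98.9 and 109 CPM in WT (log2 fold change -0.38, SE 0.14, adjusted p = 0.293), also without overlap. *sfrp1b* was at 2.65 and 1.39 CPM in *prdm1a-/-* and 1.05 and 0.712 CPM in WT (log2 fold change 1.15, SE 0.64, adjusted p = 0.511). *sfrp1a* had 72.8 and 63.2 CPM in *prdm1a-/-* and 76.9 and 69.1 CPM in WT, and *sfrp5* had 28.9 and 26.4 CPM in *prdm1a-/-* and 27.5 and 18.2 CPM in WT, with overlap in each.

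*wif1*, which encodes another Wnt-binding inhibitor, had 129 and 73.6 CPM in *prdm1a-/-* and 100 and 64.6 CPM in WT (log2 fold change 0.27, SE 0.14, adjusted p = 0.451). Its groups overlapped because the libraries numbered 2 lay under those numbered 1 in both genotypes. *notum1a*, encoding an enzyme that removes the lipid of Wnt proteins and a target of the pathway, had 47.8 and 53.2 CPM in *prdm1a-/-* and 48.7 and 56.2 CPM in WT (log2 fold change -0.05, SE 0.14).

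No gene of intracellular feedback was called. *axin2*, a scaffold of the beta-catenin destruction complex that is itself induced by Wnt signals, had 176 and 126 CPM in *prdm1a-/-* and 167 and 137 CPM in WT. Its log2 fold change was -0.02 (SE 0.13, adjusted p = 0.973), with overlapping groups. *axin1* had 120 and 126 CPM in *prdm1a-/-* and 131 and 133 CPM in WT (log2 fold change -0.10, SE 0.13, adjusted p = 0.818), with the mutant libraries lower by a small margin. *nkd1*, encoding an inhibitor that binds Dishevelled and is induced by the pathway, had 133 and 91.3 CPM in *prdm1a-/-* and 108 and 76.4 CPM in WT (log2 fold change 0.28, SE 0.13, adjusted p = 0.425). *nkd2a* had 31.2 and 21.8 CPM in *prdm1a-/-* and 31.3 and 33.1 CPM in WT (adjusted p = 0.573). *nkd3* has 4 identifiers, between which reads could be split, so its values are uncertain. The one with 1600 counts in all had 23.8 and 13.8 CPM in *prdm1a-/-* and 19.2 and 14.2 CPM in WT, and the other 3 lay under 1.1 CPM in every library, 1 of them not tested.

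Of the nuclear genes, *tcf7* had 23.8 and 17.7 CPM in *prdm1a-/-* and 16.5 and 12.5 CPM in WT. Both mutant libraries lay above both WT libraries, and the ratios of the 2 numbers were nearly equal on the log2 scale, at 0.53 and 0.50 (log2 fold change 0.52, SE 0.19, adjusted p = 0.309). *tcf7l1b*, of the Tcf branch that represses targets, had 58.2 and 63.8 CPM in *prdm1a-/-* and 69.2 and 83.7 CPM in WT, again without overlap (log2 fold change -0.32, SE 0.14, adjusted p = 0.379). *tcf7l1a*, the gene of headless fish, had 75.0 and 97.7 CPM in *prdm1a-/-* and 77.5 and 132 CPM in WT (log2 fold change -0.24, SE 0.15, adjusted p = 0.547). *lef1*, an activating partner of beta-catenin and a target of the pathway, had 61.8 and 78.7 CPM in *prdm1a-/-* and 61.6 and 72.4 CPM in WT (log2 fold change 0.06, SE 0.14, adjusted p = 0.907). The groups of *lef1* overlapped, as did those of *tcf7l2*, at 37.0 and 36.4 CPM in *prdm1a-/-* and 32.5 and 42.6 CPM in WT.

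**Figure D3:**
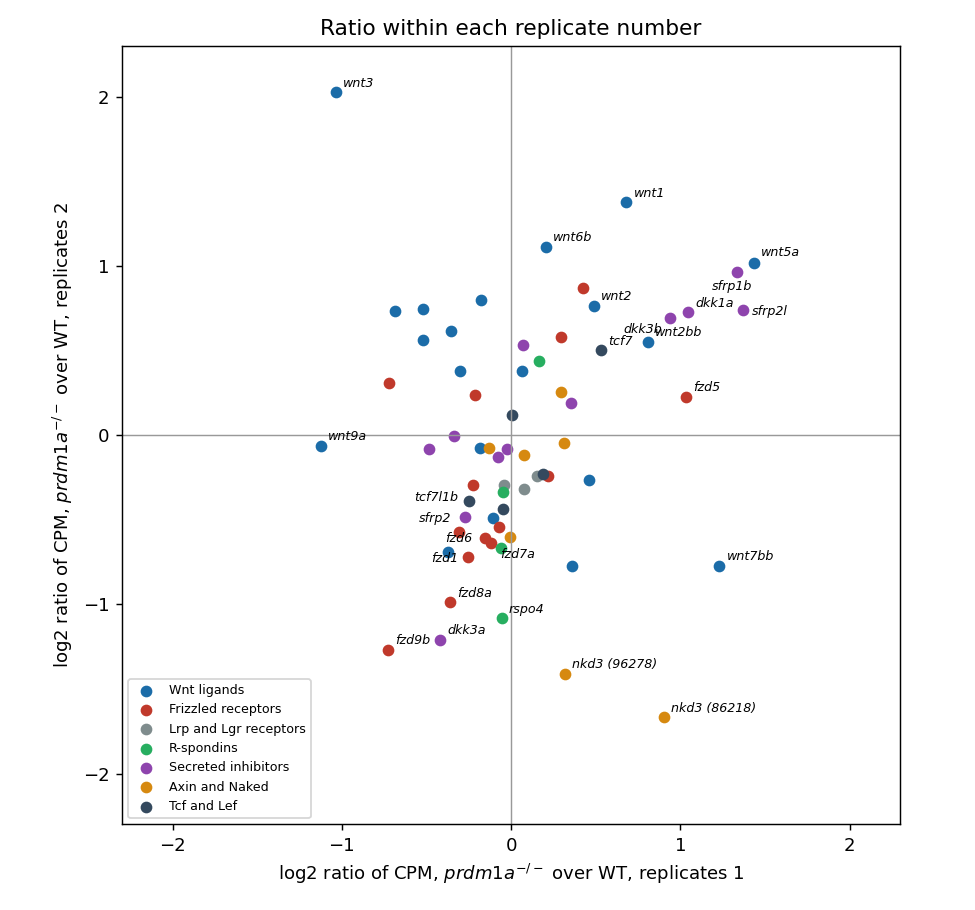
Log2 ratio of CPM, *prdm1a-/-* over WT, in replicates 1 (horizontal axis) and replicates 2 (vertical axis) for the 65 members tested, coloured by role. Members in the upper right were higher in *prdm1a-/-* in both numbers (19), those in the lower left were lower in both (26), and the other 20 had opposite signs.

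The ratios within the 2 replicate numbers show how far each member held its direction. In both numbers 19 members were higher in *prdm1a-/-* and 26 were lower, while 20 had opposite signs. Over all genes tested, 5837 were higher in both, 5812 were lower in both and 7884 had opposite signs. Of the Frizzled genes 3 were higher in both and 8 lower in both, and of the ligands 6 were higher in both and 4 lower in both.

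Other genes of the pathway gave few calls. Over all genes tested, 1.01% were called and 12.4% had an unadjusted p under 0.05, and the lists below are read beside these shares. In the list for Wnt release and other receptors, 20 of 23 names were found and 0 were called, with a median log2 fold change of -0.18. It had 2 genes at an unadjusted p under 0.05. *kremen1*, encoding a receptor for Dickkopf proteins, had 34.2 and 32.1 CPM in *prdm1a-/-* and 25.2 and 17.0 CPM in WT (log2 fold change 0.68, SE 0.18, adjusted p = 0.142). *adgra2*, a co-activator of Wnt7 signals at the cell surface, had 52.3 and 71.0 CPM in *prdm1a-/-* and 70.2 and 111 CPM in WT (log2 fold change -0.53, SE 0.14, adjusted p = 0.125). The receptors *ror1*, *ror2*, *ryk* and *ptk7a* take part in signals that do not need beta-catenin. Each lay lower in both mutant libraries than in WT, with log2 fold changes of -0.30 to -0.24 and adjusted p-values of 0.422 to 0.535. Of the 20 genes tested in this list, both mutant libraries lay below both WT libraries for 5 and above both for 1. Over all genes tested, these shares were 13.5% and 12.7%.

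For the destruction complex and beta-catenin, 25 of 27 genes were found, 0 were called, 1 had an unadjusted p under 0.05, and the median was -0.10. *ctnnb1*, the beta-catenin gene, had 775 and 811 CPM in *prdm1a-/-* and 920 and 923 CPM in WT (log2 fold change -0.22, SE 0.14, adjusted p = 0.576). *amer2*, encoding a partner of Apc, had 4.61 and 4.62 CPM in *prdm1a-/-* and 12.6 and 8.54 CPM in WT (log2 fold change -1.17, SE 0.29, adjusted p = 0.106). Among 14 of 15 targets of beta-catenin outside the members, 0 were called, 1 had an unadjusted p under 0.05, and the median was -0.04. That 1 was *ccnd1*, which encodes a cyclin, at 348 and 202 CPM in *prdm1a-/-* and 400 and 279 CPM in WT (log2 fold change -0.33, SE 0.14, adjusted p = 0.363).

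The planar cell polarity list had 1 call among 25 identifiers of 23 names, beside 1.01% of all genes tested, and a median of -0.09. At an unadjusted p under 0.05 it had 3, beside 12.4% of all genes. *celsr3*, a cadherin known for axon guidance in mice, was called lower (log2 fold change -1.48, SE 0.27, adjusted p = 0.0295). It had 2.65 and 6.93 CPM in *prdm1a-/-* and 6.28 and 22.2 CPM in WT, so the groups overlapped and the difference lies within the numbers. *daam1b*, encoding a formin that binds Dishevelled, had 191 and 180 CPM in *prdm1a-/-* and 139 and 119 CPM in WT (log2 fold change 0.52, SE 0.13, adjusted p = 0.113). *vangl2*, encoding a core polarity protein, had 177 and 173 CPM in *prdm1a-/-* and 215 and 218 CPM in WT (log2 fold change -0.31, SE 0.13, adjusted p = 0.377). The groups did not overlap in either gene.

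**Figure D4:**
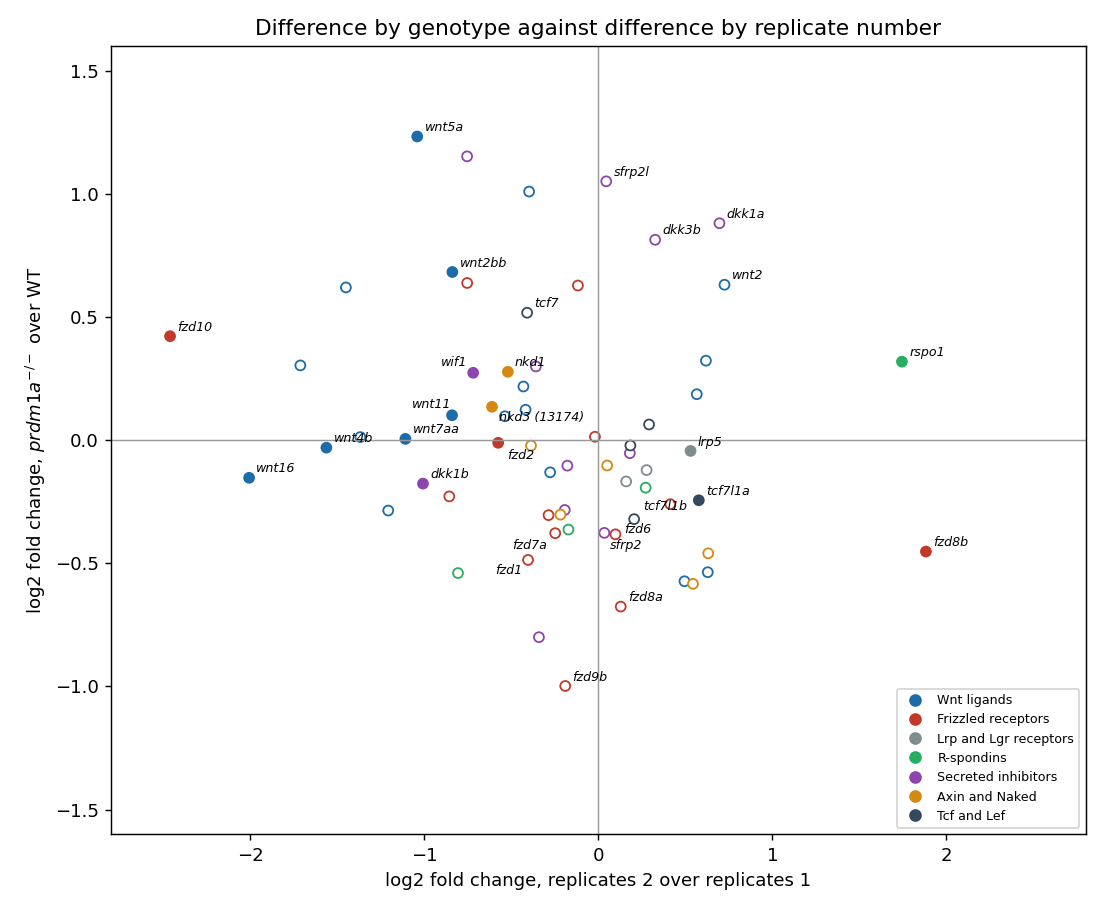
Log2 fold change of *prdm1a-/-* over WT (vertical axis) against that of replicates 2 over replicates 1 (horizontal axis) from the same fit, for the 65 members tested. The axes have different scales, colours give the role, and filled circles mark the 16 members called between replicate numbers. *fzd10* lies farthest left, at -2.46, and *fzd9b* lies near 0 on the horizontal axis, at -0.19.

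The members were also compared between replicate numbers. In the same fit, 16 of the 65 members (24.6%) were called between the libraries numbered 2 and those numbered 1, beside 24.7% of all genes, so the share of members was near the background. Of these, 4 were higher in the libraries numbered 2 (6.15%, beside 14.1% of all genes) and 12 were lower (18.5%, beside 10.6%). The median size of the log2 difference over the members was 0.49 between numbers and 0.30 between genotypes, beside 0.48 and 0.25 over all genes tested. The difference between numbers was the larger for 41 of 65 members, beside 13460 of 20007 genes, so in this too the members were near the background. The sources used here do not say what a number marks.

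The receptor gene *fzd10* differed most, with 6.24 CPM in *prdm1a-/-* and 4.18 CPM in WT in the libraries numbered 2, against 31.3 and 25.5 CPM in those numbered 1. Its log2 fold change between numbers was -2.46 (adjusted p = 1.92e-05), and between genotypes it was 0.42 (SE 0.21, adjusted p = 0.448). *wnt16*, known in zebrafish for specification of blood stem cells, had 2.003 CPM in *prdm1a-/-* and 3.43 CPM in WT in the libraries numbered 2, against 12.1 and 9.38 CPM in those numbered 1 (log2 fold change -2.01, adjusted p = 0.00213). Lower in the libraries numbered 2 were also *wnt4b*, *wnt7aa*, *wnt5a*, *wnt11*, *wnt2bb*, *dkk1b*, *wif1*, *nkd3*, *fzd2* and *nkd1*. Higher in them were *fzd8b*, *rspo1*, *tcf7l1a* and *lrp5*. *fzd8b* had 5.93 CPM in *prdm1a-/-* and 8.81 CPM in WT in the libraries numbered 2, against 1.76 and 2.18 CPM in those numbered 1 (log2 fold change 1.88, adjusted p = 0.00326).

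Markers of several cell types moved with the numbers. Of 6 skeletal muscle markers, all 6 were called lower in the libraries numbered 2, with sums of 1800 CPM in *prdm1a-/-* and 901 CPM in WT, against 6373 and 7347 CPM in those numbered 1. Of 7 cartilage markers, 4 were called lower there and 1 higher. Notochord markers summed to 48.0 CPM in *prdm1a-/-* and 203 CPM in WT in the libraries numbered 2, against 404 and 745 CPM in those numbered 1. Of the 203 CPM, 180 came from *emilin3a*, which was not called between numbers (log2 fold change -0.08, adjusted p = 0.711). Between genotypes *emilin3a* was called lower in *prdm1a-/-* (log2 fold change -3.03, SE 0.14, adjusted p = 2.14e-05). The part of these cell types in the differences of the 16 members was not tested. The log2 fold change between numbers was -0.19 for *fzd9b* (SE 0.17, adjusted p = 0.461), 0.04 for *sfrp2l* (SE 0.34) and 0.03 for *sfrp2* (SE 0.14), and none of the 3 was called, whereas *wnt5a* and *wnt2bb* were called between numbers. For *wnt5a* the log2 fold change was -1.04 between numbers and 1.23 between genotypes, and for *wnt2bb* it was -0.84 between numbers and 0.68 between genotypes.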

How the data were processed

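RNA was measured in 4 libraries of sorted fin cells. The authors trimmed read pairs, aligned them with STAR 2.7.10b to danRer11, counted reads per gene with featureCounts and ran DESeq2. They deposited whole-number counts per gene, without normalization, which were used here. The counting options and the annotation were not given in the sources used here. Not used were the authors' log2 values per sample (4 columns) and the columns of their own comparison (fold changes, p-values), and 6 CUT&RUN samples were not analysed here. Gene sequences were not used here.

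Genotypes were compared with edgeR 4.0.16 (R 4.3.3): TMM, filterByExpr (minimum count 10, minimum total 15), glmQLFit and glmQLFTest with genotype and replicate number as terms, two-sided, with Benjamini-Hochberg adjustment over 20007 genes. Alternatives were RLE size factors, no filter, at least 10 counts in every library, DESeq2 1.42.0, limma-voom (limma 3.58.1), each replicate number alone, no block, and no block without each library. Simulated counts that kept the replicate differences of the real libraries served to test the scripts. In these, edgeR with the block recovered 96% of 4-fold and 22% of 2-fold changes, with 9 false calls. The shares were 96% and 25% with limma-voom and the block, and 79% and 12% with DESeq2 and the block. Without the block, edgeR recovered 0% of both. Every gene was simulated with the common dispersion, so these shares need not hold for a given member. Some members without a call can still differ by 2-fold, such as *wnt1* (log2 fold change 1.01, SE 0.86). Both simulated genotypes had the same replicate differences, so the 0% in edgeR without the block followed from the design. It cannot decide how to read the call of *fzd9b* that was lost without the block. DESeq2 without the block called 48 genes, and there *fzd9b* had an adjusted p of 0.99997. The labels give both genotypes replicate numbers but do not say what a number marks. Same-numbered libraries deviated together (r = 0.70 over genes, which do not count as replicates), the first principal component (68.4% of variance) separated the numbers, and the common dispersion was 0.0446 with the block and 0.255 without. The block leaves 1 residual degree of freedom. The libraries are labelled as biological replicates, each from pooled embryos. With the block, p-values rest on how far the difference between genotypes varied between the replicate numbers. With so few degrees of freedom, the fit draws this spread largely from all genes together. A member's SE is therefore not its own spread alone: in *tcf7* the log2 ratios were 0.53 and 0.50, and the SE was 0.19. Only the fits without the block measure the spread between pools of the same genotype.

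Given in full were members with an unadjusted p under 0.05, members called by edgeR, DESeq2 or limma-voom with the block, and the 2 members of each role with the most counts. The members, lists and tests were chosen with earlier results of these data known. Pathway genes and markers singled out by value in the text were named after their values were seen.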

Additional observations from a re-analysis of the deposited data

How the results depend on the processing

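With the replicate block, 203 genes were called between genotypes, and 128 with RLE size factors, 434 with limma-voom and 636 with no filter on low counts. With no replicate block, edgeR called 0 genes (376 at an unadjusted p under 0.05) and limma-voom 0 (351), while DESeq2 called 48; each fit that left out 1 of the 4 libraries, without the block, gave 0 (258 to 385). Of the members, 1 was called with the block, 0 with RLE size factors (13 at an unadjusted p under 0.05) and 3 with no filter, where *fzd8a* and *wnt5a* joined *fzd9b*. With no replicate block, 0 members were called by edgeR (2 at an unadjusted p under 0.05), 0 by DESeq2 (2) and 0 by limma-voom (3), and 0 without each library (0 to 1). The DESeq2 and limma-voom fits without the block were chosen after seeing the data. The log2 fold change of *fzd9b* stayed below 0 in all of these fits, at -1.23 to -0.77 without each library and the block. That of *fzd2*, -0.01, was 0.033 with no replicate block and 0.037 with DESeq2 and no block. Between replicate numbers, DESeq2 called 10 members in place of 16. The cause was not tested. The *wnt* genes of few counts had large standard errors, and the part of depth in this was not tested.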
